A study of Rattus norvegicus with 9 samples.

Results

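The regions described here are the places in the rat genome where the deposited MBD3 peaks were most strongly enriched in more than 1 animal. Peaks with a fold enrichment of at least 8 on chromosomes 1 to 20 and X were taken from each of 7 peak lists. They were joined where they shared at least 1 bp, and a region was kept when it held such peaks from at least 2 lists. Fold enrichment is the authors' value per peak, the stacked ChIP tags at the summit over the local background, each raised by 1. A peak that reached 8 is called strong below. The rule left 1057 regions, 13.2% of the 8012 regions with a strong peak in any list. All peaks together formed 176202 merged regions, and 46309 of these were called at any fold in at least 2 lists.

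MBD3 is a subunit of NuRD, a complex that combines nucleosome remodelling with histone deacetylation. It has a methyl-CpG-binding domain, but in mammals it binds methylated DNA poorly by itself, and NuRD is recruited to promoters and enhancers largely through other proteins. In neurons NuRD is known for silencing genes as cells mature and for restraining genes switched on by activity.

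The samples came from male Sprague-Dawley rats with electrodes implanted in the left lateral amygdala under isoflurane. In 4 rats the amygdala was stimulated for 20 min with pulses of 400 µA to evoke status epilepticus, and diazepam at 20 mg/kg was given after 1.5 h. The 3 sham-operated rats carried the electrodes without stimulation, and no diazepam is recorded for them. Every rat was killed at 14 days, and piriform, perirhinal and entorhinal cortex were dissected together with the amygdala. Crosslinked chromatin of this mixed tissue was precipitated with an anti-MBD3 antibody, so the cell types behind a peak are not known. Each list comes from a separate animal, and 1 input library per group served as control. The design sets MBD3 occupancy after stimulation against that after sham surgery.

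The libraries were of unequal depth, and 2 of them stand apart. Filtered ChIP tags ranged from 2436208 to 3668143 in sham rats and from 4812579 to 17960510 in stimulated rats. The input held 5241067 filtered tags for the sham lists and 33279049 for the stimulated lists, so depth, input and treatment cannot be told apart. Because fold enrichment is set against a background that grows with depth, fold 8 at the genome-wide rate needed 10, 9 and 9 tags in sham rats 1 to 3. It needed 19, 12, 11 and 15 tags in stimulated rats 1 to 4. Strong peaks made up 2.59%, 2.61% and 2.20% of the distinct peaks of sham rats 1 to 3, and 5.74% and 2.55% of those of stimulated rats 2 and 4. Stimulated rat 1 had 11 strong peaks and stimulated rat 3 had 0, with a highest fold of 7.94. Duplicates made up 78.3% of the ChIP tags of stimulated rat 3, against 9.10% to 39.1% in the other lists, with the lowest share in stimulated rat 1. The part of library quality, or of a mislabelled library, in the low calls of these 2 lists was not tested, and the group difference that rests on them is also given without them. The recurrent strong regions were therefore chosen by 5 of the 7 lists.

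Most of the regions rested on 2 strong lists. Strong peaks came from 2 lists in 874 regions (82.7%), from 3 lists in 146, from 4 lists in 29 and from 5 lists in 8. Stimulated rat 2 contributed a strong peak to 860 regions and stimulated rat 4 to 700. Sham rats 1 to 3 contributed to 395, 217 and 170. The commonest pair was stimulated rats 2 and 4, which alone reached fold 8 in 562 regions (53.2%). A further 165 regions (15.6%) were strong in sham lists only, and 330 (31.2%) had strong peaks in both groups. The number of regions was 340 without stimulated rat 2 and 467 without stimulated rat 4, so these libraries decided its size.

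The threshold of 8 fell in a continuous range. The second highest fold enrichment lay between 8 and 9 in 623 regions (58.9%) and was at least 12 in 42. The 2 regions just inside were on chromosome 1 at 17191008 to 17191489, with a second highest fold of 8.01, and on chromosome 7 at 23439031 to 23439395, also with 8.01. Just outside lay chromosome 10 at 42077928 to 42078459, with fold 8.36 in stimulated rat 4 and 7.997 in stimulated rat 2. A region on chromosome 5 at 42339047 to 42339890 stayed outside because its strong summits, in sham rat 3 and stimulated rat 2, were 600 bp apart and joined only through weaker peaks.

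Read in the full lists, the strong regions were called widely at lower fold. A peak of any fold was present in 821, 573 and 634 regions in sham rats 1 to 3, or 77.7%, 54.2% and 60.0%. Among all merged regions called in at least 2 lists the shares were 40.4%, 19.6% and 18.1%. Stimulated rats 2 and 4 called 1055 (99.8%) and 1029 (97.4%), against 88.3% and 71.9%. Stimulated rat 3 called 46 (4.35%) and stimulated rat 1 called 4 (0.378%), against 0.721% and 0.896%. The rule itself required calls in at least 2 lists, so these shares describe the regions and are not a test.

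**Figure D1:**
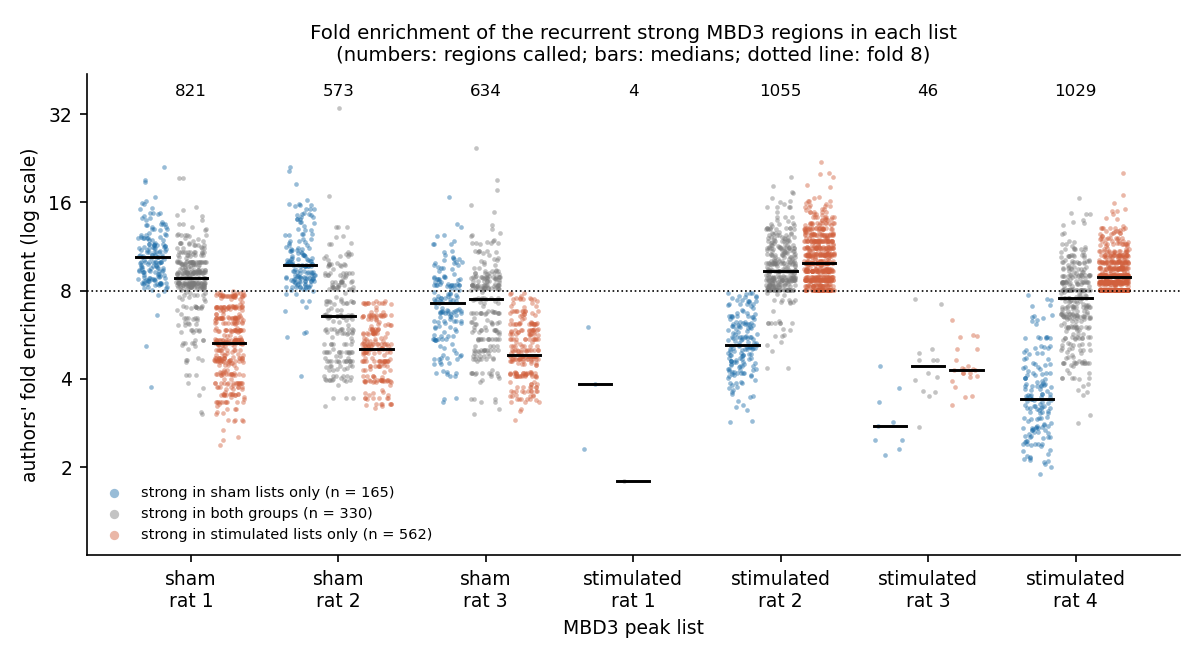
Authors' fold enrichment (log scale) of the 1057 recurrent strong MBD3 regions in each of the 7 peak lists, 1 point per region called there, coloured by the lists in which the region reached fold 8; black bars are the medians of each colour and the numbers above give the regions called. Stimulated rats 2 and 4 called 1055 and 1029 regions, sham rats 573 to 821, and stimulated rats 1 and 3 only 4 and 46, all of these below fold 8.

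Where called, the median fold enrichment of the regions was 7.73, 6.57 and 6.14 in sham rats 1 to 3. Stimulated rats 2 and 4 had medians of 9.30 and 8.40, and stimulated rats 3 and 1 had 4.18 and 3.07. Within its own list the median region stood at percentile 96.7, 91.8 and 86.6 of fold enrichment in the sham rats and at 98.2 and 98.3 in stimulated rats 2 and 4. In stimulated rats 3 and 1 it stood at percentile 26.7 and 24.2, among the weaker peaks. Most of the regions were not called in these 2 lists, and those called were mostly among the weaker peaks there, with exceptions named below. The regions were chosen by fold in the sham lists and in stimulated rats 2 and 4. Of the regions, 37.4%, 20.5% and 16.1% were strong in sham rats 1 to 3, and 81.4% and 66.2% in stimulated rats 2 and 4. Fold medians and percentiles in the lists that chose the regions are thus tied to the rule. They are given as a description, and no group difference is drawn from them.

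A list that takes no part in choosing the regions gives a measure that the rule did not use. Regions were chosen again by the same rule from 6 lists and read in the seventh. Of 808, 923 and 999 regions chosen without them, sham rats 1, 2 and 3 called 70.8% (95% Clopper-Pearson interval 67.5 to 73.9%), 47.6% (44.3 to 50.8%) and 57.7% (54.5 to 60.7%). For regions called at any fold in at least 2 of the other lists, the same rats called 26.2%, 12.8% and 12.1%.

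Stimulated rat 2 called 338 of 340 regions chosen without it (99.4%, 97.9 to 99.9%), against 69.4% at any fold. Stimulated rat 4 called 439 of 467 (94.0%, 91.5 to 96.0%), against 46.0%. Stimulated rat 3 called 46 of 1057 (4.35%, 3.20 to 5.76%), against 0.463%, and stimulated rat 1 called 4 of 1057 (0.378%, 0.103 to 0.966%), against 0.200%. The share was higher for recurrent strong regions than for regions of any fold in 7 of 7 lists, although the interval of stimulated rat 1 includes its comparison value. These intervals cover counting error over regions only.

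Regions strong in just 1 of the other lists took an intermediate place in 6 of the 7 lists. They were called at 32%, 17.2% and 16.9% in sham rats 1 to 3, and at 81.0% and 59.4% in stimulated rats 2 and 4. In stimulated rats 3 and 1 the shares were 0.719% and 0.173%, the latter being the exception.

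The shares did not separate the groups. The mean held-out share of the sham rats was 58.7% ± 11.6 (SD, n = 3), and that of the stimulated rats 49.5% ± 54.5 (SD, n = 4). The difference of -9.13 percentage points was smaller than either SD (p = 0.686 by exact permutation, two-sided, smallest possible 0.0571). Stimulated values lay both above and below all sham values. Without stimulated rats 1 and 3 the difference was 38.0 points in the opposite direction (exact permutation p = 0.200, the smallest possible with 3 and 2 rats). It also turned without sham rat 1 (3.31 points), stimulated rat 1 (7.25) or stimulated rat 3 (5.93), and was -48.5 and -41.5 points without stimulated rats 2 and 4.

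**Figure D2:**
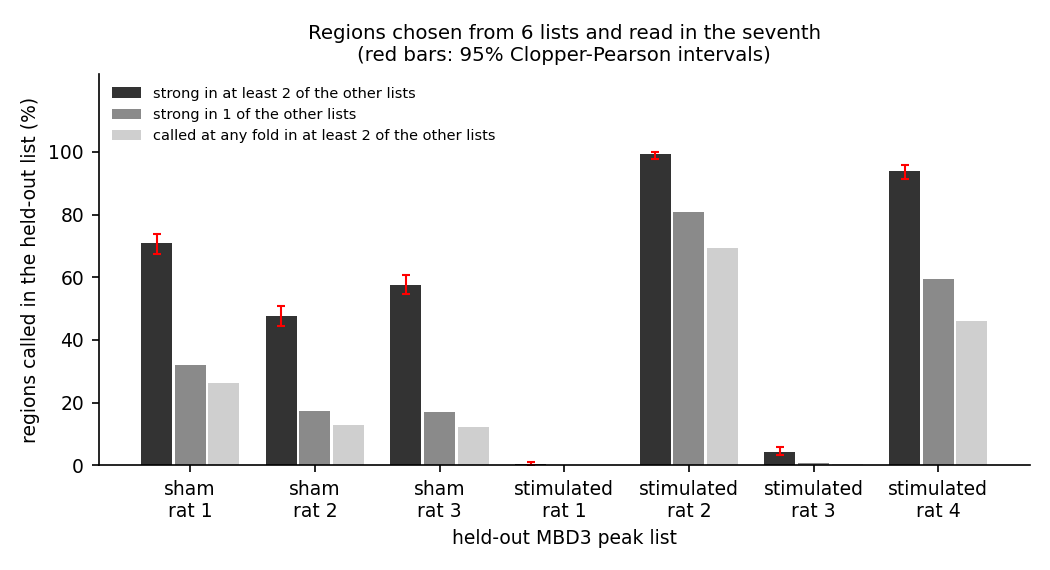
Share of regions (%, y axis) called in each held-out MBD3 list, for regions strong in at least 2 of the other 6 lists, strong in 1 of them, or called at any fold in at least 2 of them; red bars are 95% Clopper-Pearson intervals. The dark bars are the highest in each list, from 0.378% in stimulated rat 1 to 99.4% in stimulated rat 2, and the groups overlap.

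Among the 5 lists that chose the regions, peaks of higher fold were met more often in the other lists. From fold 4 upward the shares climbed with each bin for peaks of sham rat 1 and of stimulated rats 2 and 4. For peaks of sham rats 2 and 3, whose top bins hold 45 and 16 peaks, some shares were level or lower in the last bin. Peaks of sham rat 2 met sham rat 3 at 92.3% from fold 10 to 12 and at 86.7% from 12 on, and those of sham rat 3 met stimulated rat 2 at 97.8% and 93.8%. Of the 12069 peaks of stimulated rat 2 below fold 4, 17.1% met a peak of stimulated rat 4 and 11.2%, 5.68% and 4.06% a peak of sham rats 1 to 3. Of its 283 peaks of fold 12 or more, 94.7% met stimulated rat 4 (91.4 to 97.0%) and 70.3%, 45.2% and 54.1% met the sham rats. Stimulated rats 2 and 4 and the shallower sham libraries thus named many of the same top sites.

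The gradient was also present from the sham side. Of the 7128 peaks of sham rat 1 below fold 4, 37.4% met stimulated rat 2 and 9.76% sham rat 2. Of its 78 peaks of fold 12 or more, 96.2% met stimulated rat 2 (89.2 to 99.2%) and 89.7% sham rat 2 (80.8 to 95.5%).

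Peaks of stimulated rat 1 were met far less often. The share that met stimulated rat 4 was 5.63% of 4529 peaks below fold 4, 2.43% of 4692 from 4 to 6 (2.01 to 2.91%) and 8.08% of 99 from 6 to 8 (3.55 to 15.3%). Of its 11 strong peaks, 1 met a peak of stimulated rat 4 and 0 met a peak of any other list. In the other direction, 0 of the 283 strongest peaks of stimulated rat 2 were called in stimulated rat 1, although that library was the deepest. Counting error over peaks alone, without variation between rats, allows a share of up to 1.06%.

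**Figure D3:**
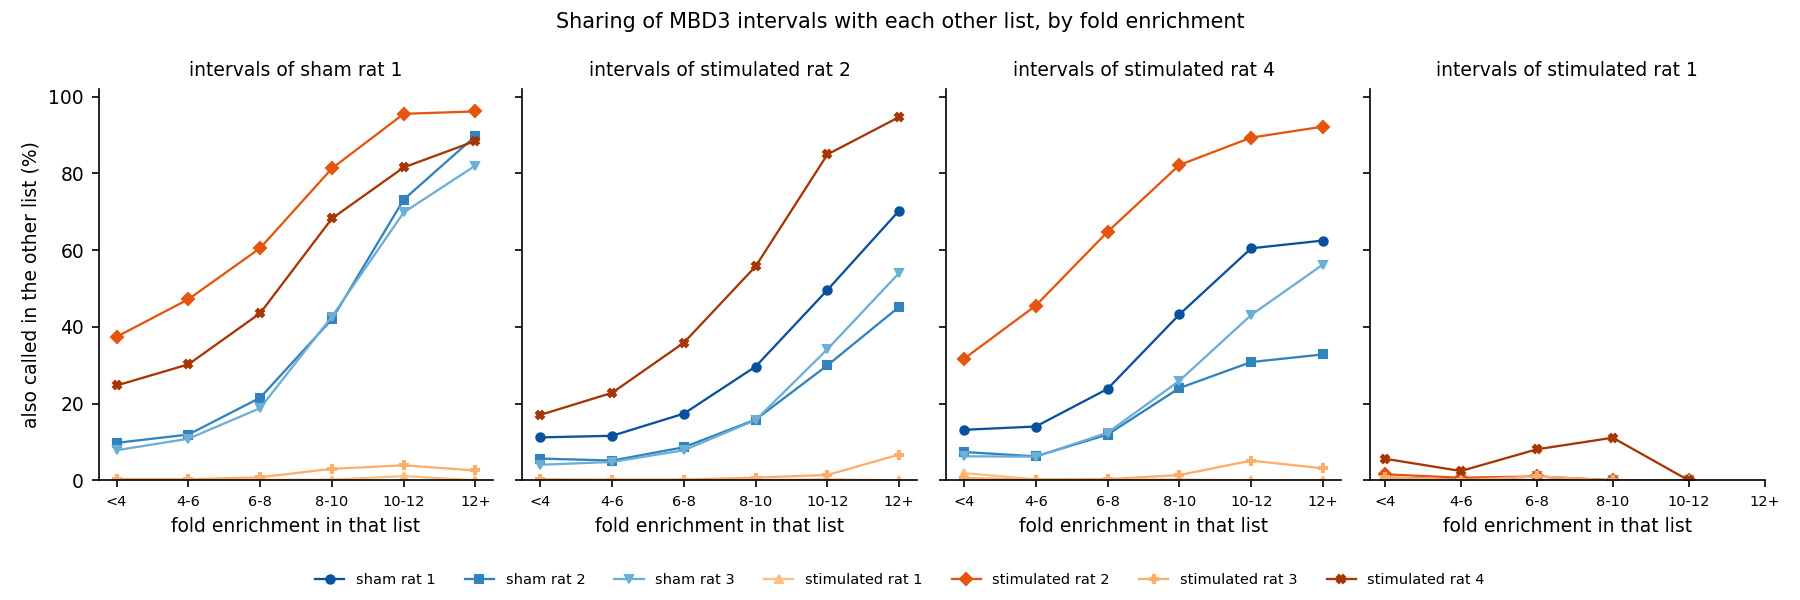
Share (%, y axis) of the peaks of sham rat 1 and stimulated rats 2, 4 and 1 that were also called in each other list, by bins of fold enrichment in the source list (x axis). In the first 3 panels the lines for sham rats and for stimulated rats 2 and 4 climb from fold 4 upward, for example from 17.1% to 94.7% between stimulated rats 2 and 4; the last panel, for stimulated rat 1, stays low and its bins above fold 8 hold 11 peaks.

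By groups, 915 regions (86.6%) were called in at least 1 sham list, against 58.5% of the merged regions called in at least 2 lists. All 3 sham lists called 417 (39.5%, against 3.42%), and 405 of these were also called in stimulated rats 2 and 4. Stimulated lists alone called 142 regions (13.4%), against 41.5%. Sham lists alone called 0, against 3.05%, since each region was met by stimulated rat 2 or stimulated rat 4. These counts depend on list length. With presence read in lists of the same 2692 strongest peaks, 408 regions were called in stimulated lists alone and 109 in sham lists alone. Stimulated lists alone called 254 regions without sham rat 1 and 0 without stimulated rat 2 or 4, and sham lists alone 11 without stimulated rat 2 and 1 without stimulated rat 4.

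No single region could be shown to differ in presence between the groups. After Benjamini-Hochberg adjustment, two-sided Fisher's exact tests called 0 of all 176202 merged regions (0%), and 54 had an unadjusted p below 0.05 (0.0306%). None of the 1057 recurrent strong regions was among the 54, and their smallest unadjusted p was 0.143. An unadjusted p below 0.05 needs calls in every list of 1 group and in none of the other. Each of the 1057 was called in stimulated rat 2 or 4, and the only 1 called in all 4 stimulated lists was called in all 7. The rule also used these calls, so no conclusion about the groups is drawn from the 1057. With 7 rats the smallest possible p is 0.0286, and the smallest adjusted p was 1.

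The 8 regions with strong peaks in 5 lists were strong in all sham rats and in stimulated rats 2 and 4. First by its lowest value was a region on chromosome 2 at 134264702 to 134264988. Fold enrichment there was 19.4, 33.6 and 24.6 in sham rats 1 to 3, 9.68, 7.50 and 13.9 in stimulated rats 2 to 4, and no peak was called in stimulated rat 1. It held the highest fold of any region in sham rats 2 and 3, and also the highest that stimulated rat 3 gave any of the regions, close to that list's maximum of 7.94. Pileups were 32, 50 and 35 tags in the sham rats and 22, 13 and 44 in stimulated rats 2 to 4. The strong summits lay within 21 bp of one another. Sham folds exceeded all stimulated folds. The pileup of stimulated rat 4 exceeded those of sham rats 1 and 3 in raw tags, not scaled for depth. That library held 12357373 filtered tags, against 3668143 and 2436208 in sham rats 1 and 3.

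Chromosome 10 carried the next 2. At 83765190 to 83765745, fold enrichment was 9.41, 9.88 and 11.9 in sham rats 1 to 3 and 9.85, 4.64 and 9.98 in stimulated rats 2 to 4. At 71791872 to 71792418, it was 9.68, 10.3 and 13.0 in the sham rats and 13.1, 3.98 and 8.61 in stimulated rats 2 to 4. Sham values and those of stimulated rats 2 and 4 overlapped at both sites, and stimulated rat 3 was low. Strong summits spread over 266 and 159 bp, wider than at the site on chromosome 2.

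Another 5 regions were called in the same 5 lists and in neither stimulated rat 1 nor stimulated rat 3. On chromosome 7 at 23142394 to 23142762, fold enrichment was 9.16, 12.2 and 8.60 in sham rats 1 to 3 and 18.2 and 10.8 in stimulated rats 2 and 4. On chromosome 1 at 255993940 to 255994317, it was 10.8, 8.56 and 17.6 in the sham rats and 12.2 and 13.7 in stimulated rats 2 and 4. The highest value came from stimulated rat 2 at the first site and from sham rat 3 at the second. On chromosome 2 at 176064055 to 176064270, the values were 13.5, 10.5 and 8.95 in the sham rats and 11.5 and 8.27 in stimulated rats 2 and 4, with summits within 10 bp.

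The last 2 of these 5 had taller tag stacks over higher background. On chromosome 1 at 57187977 to 57188214, fold enrichment was 12.3, 9.78 and 8.77 in the sham rats and 11 and 8.08 in stimulated rats 2 and 4. On chromosome 6 at 39311264 to 39311516, it was 14.5, 10.5 and 19.1 in the sham rats and 10.8 and 8.07 in stimulated rats 2 and 4. Local background, recovered from pileup and fold, stood at 5.62 to 7.14 times the genome-wide rate at the first and 8.56 to 9.37 times at the second. Pileups reached 53 and 82 tags, both in stimulated rat 4.

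Ranks 9 and 10 went to regions strong in 4 lists. One on chromosome 3 at 105461010 to 105461272 had fold 10.6 and 11.6 in sham rats 1 and 3 and 13.0 and 11.6 in stimulated rats 2 and 4, with no peak in sham rat 2. One on chromosome 17 at 36127468 to 36127904 had fold 10.6, 5.93 and 11.6 in sham rats 1 to 3 and 10.9, 5.07 and 10.5 in stimulated rats 2 to 4. Sham rat 2 was the low sham list at both. None of the 10 top-ranked regions was called in stimulated rat 1.

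Of the 142 regions with no sham peak, 1 was called in 3 stimulated lists. It lay on chromosome 8 at 123519118 to 123519656, with fold 9.48, 4.18 and 11.5 and pileups of 15, 5 and 24 tags in stimulated rats 2 to 4. The next by lowest fold were on chromosome 8 at 14105579 to 14105817, with 13.5 and 13.3 in stimulated rats 2 and 4, and on chromosome 14 at 80841201 to 80841474, with 13.0 and 12.8. Both had pileups of 21 tags in stimulated rat 2 and 26 in stimulated rat 4. Those on chromosome 11 at 401872 to 402118 and chromosome 16 at 47710016 to 47710344 had lowest folds of 11.8 and 11.3. All of these 5 sites were above the threshold in both stimulated rats 2 and 4, and stimulated rat 1, the deepest library, called none of them.

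The region called in the most lists was present in all 7. It lay on chromosome 20 at 42616741 to 42617161, with fold 8.15, 4.33 and 4.70 in sham rats 1 to 3 and 1.80, 8.49, 2.75 and 6.53 in stimulated rats 1 to 4. Local background there was 17.2 to 49.1 times the genome-wide rate. The other 3 regions called in stimulated rat 1, named after their values were seen, lay on chromosomes 1 (56912963 to 56913203), 12 (5494570 to 5496028) and 17 (59595973 to 59596198), with fold 2.31, 3.83 and 6.02 in that list. Local background in that list was 36.3, 6.74 and 3.0 times the genome-wide rate at these sites.

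Strong regions were broad for these lists. The median width of the peak at a region was 265, 244 and 225 bp in sham rats 1 to 3, against 157, 150 and 150 bp over each whole list. It was 330 and 297 bp in stimulated rats 2 and 4, against 165 bp in both lists. Peaks with several summits made up 13.5%, 13.1% and 8.36% at the regions in sham rats and 20.9% and 15.5% in stimulated rats 2 and 4. Over whole lists the share was 1.08% to 1.37% in these 5 lists. The regions were chosen by the fold of the same peaks, so width is given as a description.

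Summits of different lists mostly lay within 50 bp of each other, but not more closely than at weaker peaks. Over the 10 pairs of sham rats and stimulated rats 2 and 4, the median distance between summits was 21 to 33 bp. Summits lay within 50 bp of each other in 61.9% to 76.5% of the regions called in both lists. For weaker peaks outside the regions the share was 67.8% to 79.6%, higher in 10 of 10 pairs. Among regions under 1000 bp it was 65.0% to 78.6%, still lower in 10 of 10 pairs. Peaks at the regions were wider than over whole lists, and the shares were not matched for width. The pairs share lists and were not tested.

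Split by where they reached fold 8, the regions formed sets that differed in shape. The 165 regions strong in sham lists only had a median width of 536 bp, against 308.5 bp for those strong in both groups and 354.5 bp for those strong in stimulated lists only. At least 1000 bp were spanned by 32 of the 165 (19.4%), but by 6 of 330 and 8 of 562 of the others. Of the 165, the 92 in the crowded runs described below had a median width of 709 bp. The 73 outside those runs had 279 bp, against 341 bp for the other 892 regions, so the greater width was confined to the runs. The split is by the fold values themselves, so the contrast in fold that follows is fixed by the choice and is a description.

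Regions strong in sham lists only were nearly all called in stimulated rats 2 and 4. They had a median fold of 10.4, 9.82 and 7.26 in sham rats 1 to 3, and were called in 165 and 156 of 165 cases in stimulated rats 2 and 4 with medians of 5.20 and 3.41. Their stacks were tall in every one of these lists. Depth-scaled pileup, in tags per 1000000 filtered tags, had a median of 7.09, 8.09 and 6.16 in the sham rats and 5.24 and 3.32 in stimulated rats 2 and 4. At regions strong in stimulated lists only it was 2.45, 2.58 and 2.87 in the sham rats and 2.23 and 1.46 in stimulated rats 2 and 4.

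Local background was recovered from pileup and fold, so its contrast between the sets is tied to the split by fold and is a description. At regions strong in sham lists only it was 4.76, 4.76 and 5.35 times the genome-wide rate in the sham lists, and 11.6 and 11.8 times in stimulated rats 2 and 4. At regions strong in stimulated lists only it was 2.38 times in each sham list and 1.01 times in stimulated rats 2 and 4. A single tag of the sham input within a tag's length is worth 2.38 genome-wide rates, and a single tag of the stimulated input 0.375. The median sham background at such a region was thus the worth of 1 input tag. The part of background and input depth in the split between sets was not tested.

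**Figure D4:**
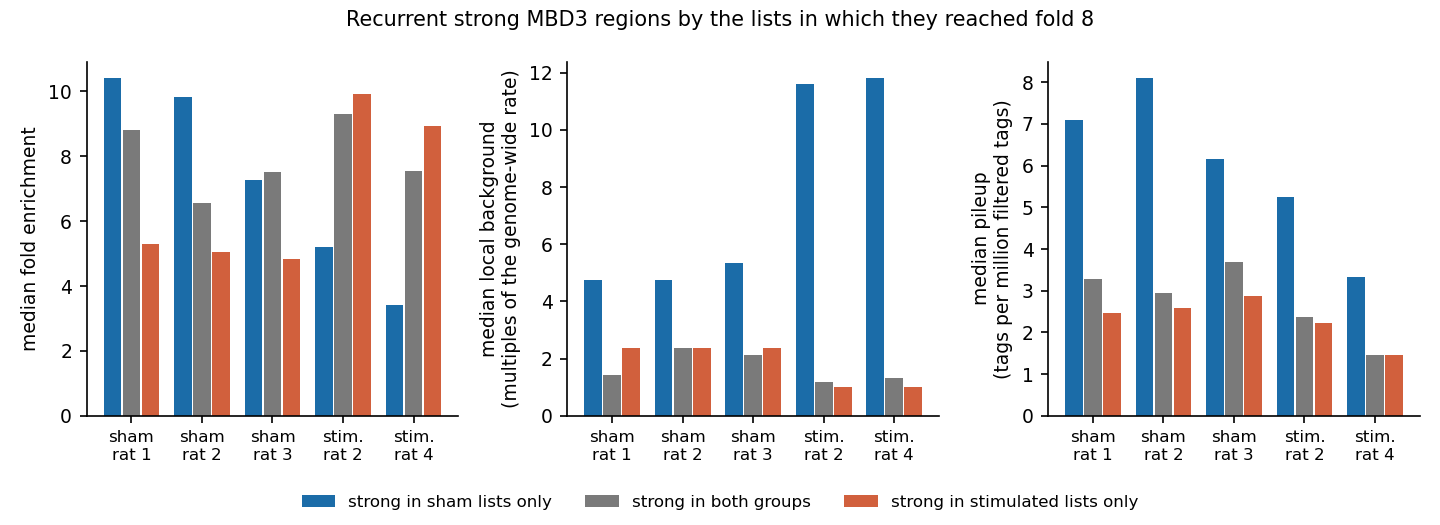
Medians in sham rats 1 to 3 and stimulated rats 2 and 4 for regions strong in sham lists only (n = 165), in both groups (n = 330) or in stimulated lists only (n = 562): fold enrichment (left), local background in multiples of the genome-wide rate (centre) and pileup in tags per 1000000 filtered tags (right). Regions strong in sham lists only have the tallest pileups in all 5 lists and a background of 11.6 and 11.8 in the stimulated lists against 4.76 to 5.35 in the sham lists. The sets are split by fold and the background is recovered from fold, so both contrasts are descriptions.

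The 562 regions strong in stimulated rats 2 and 4 alone had a median fold of 9.92 and 8.93 there. In sham rats 1 to 3 they were called in 353 (62.8%), 207 (36.8%) and 240 (42.7%) cases, with medians of 5.29, 5.06 and 4.83. No sham list called 142 of them (25.3%), 1 sham list 154, 2 sham lists 152 and all 3 sham lists 114 (20.3%). Stimulated rat 3 called 23 and stimulated rat 1 called 0. Counting error over regions alone, without variation between rats, allows the latter a share of up to 0.534%. The merged regions called in at least 2 lists were called in 40.4%, 19.6% and 18.1% of cases by these sham lists and in 58.5% by at least 1. The medians over all peaks of these sham lists were 4.64, 4.93 and 5.02.

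The regions were spread over 21 chromosomes but crowded at a few places. Chromosome 1 held 182 regions (17.2%), against 10.4% of the merged regions called in at least 2 lists. Chromosome 10 held 65 (6.15%, against 4.43%) and chromosome 13 held 61 (5.77%, against 5.17%). Chromosome 4 held 51 (4.82%, against 6.98%), chromosome 5 held 38 (3.60%, against 6.05%) and the X chromosome 4 (0.378%, against 0.669%). Regions strong in sham lists only lay on chromosome 1 in 71 of 165 cases (43.0%), while 49 of the 562 regions strong in stimulated lists only (8.72%) lay on chromosome 10. These shares were not tested.

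**Figure D5:**
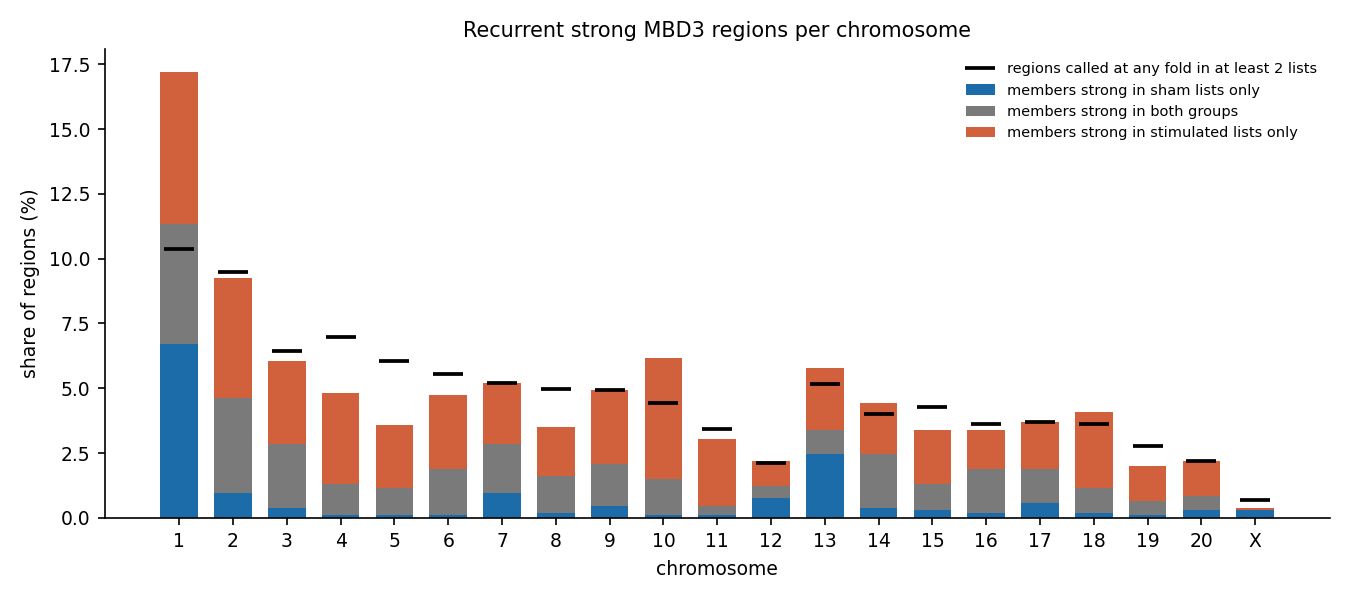
Share of the 1057 recurrent strong MBD3 regions on each chromosome (%, y axis), stacked by the lists in which they reached fold 8; black marks give the share of all merged regions called in at least 2 lists. Chromosome 1 stands above its mark (17.2% against 10.4%), with a large part from regions strong in sham lists only.

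Crowding was strongest among regions strong in sham lists only. The median distance to the nearest other region was 9.57 kb for that set, 647 kb for regions strong in both groups and 898 kb for those strong in stimulated lists only. Runs of at least 5 regions with gaps of up to 100 kb, a definition chosen after the positions were seen, numbered 6 and held 99 regions. Of these 99, 92 were strong in sham lists only, 7 in both groups and 0 in stimulated lists only. Outside the runs, chromosome 1 held 12.5% of the regions and chromosome 13 held 3.65%.

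The longest run lay on chromosome 1 at 187655235 to 188323542, with 45 regions that covered 49.7 of its 668 kb. All 45 were called in sham rats 1 and 2 and in stimulated rats 2 and 4, and 44 in sham rat 3. Median fold was 10.0, 10.0 and 7.46 in sham rats 1 to 3 and 5.11 and 3.41 in stimulated rats 2 and 4. Stimulated rat 3 called 6 of them and stimulated rat 1 called 0. Fold ranged from 6.58 to 14.7, 7.51 to 21.1 and 3.43 to 11.8 in sham rats 1 to 3, and from 3.27 to 8.34 and 2.00 to 4.89 in stimulated rats 2 and 4. Every sham range overlapped that of stimulated rat 2, and only the range of sham rat 3 overlapped that of stimulated rat 4.

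Further runs on chromosome 1 lay at 188917089 to 189022270 (10 regions) and 187444593 to 187519619 (7 regions). The widest of all regions, singled out after its width was seen, was 4259 bp at 188134865 to 188139123 in the longest run. Its fold was 11.9, 10.1 and 8.79 in sham rats 1 to 3 and 5.71 and 3.46 in stimulated rats 2 and 4, and its pileups were 52, 35 and 28 tags and 99 and 95 tags. In raw tags the stimulated pileups were taller, while stimulated folds were lower. Background was 11.8 genome-wide rates in the sham lists and 27 in the stimulated ones. The pileups were not scaled for depth. Stimulated rats 2 and 4 had 7631096 and 12357373 filtered tags, against 2436208 to 3668143 in the sham rats.

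Chromosome 13 had the second longest run, at 38609434 to 38956155, with 26 regions over 347 kb. Median fold was 10.2, 10.1 and 6.83 in sham rats 1 to 3 and 4.58 and 3.05 in stimulated rats 2 and 4. A run of 6 lay on chromosome 12 at 5751105 to 5792464, with medians of 11.2, 11.9 and 5.77 in the sham rats and 4.82 and 2.33 in stimulated rats 2 and 4, the last over the 4 regions called there. The run of 5 on chromosome 9 at 6507015 to 6582804 was of another kind. There 4 of 5 regions were strong in both groups, with medians of 9.41, 4.77 and 9.84 in sham rats 1 to 3 and 8.57 and 6.70 in stimulated rats 2 and 4.

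Within the runs both the ChIP stacks and the input background were high. The 92 regions strong in sham lists only had a median depth-scaled pileup of 9.41, 11 and 7.59 in sham rats 1 to 3 and 7.21 and 4.05 in stimulated rats 2 and 4. The other 892 regions, those not strong in sham lists only, had 3.0, 2.94 and 3.28 in the sham rats and 2.23 and 1.46 in stimulated rats 2 and 4. Background at the 92 was 9.22, 8.21 and 9.51 genome-wide rates in the sham lists and 17.2 in each of stimulated rats 2 and 4. Outside the runs, 73 regions were strong in sham lists only, with median folds of 10.2, 9.25 and 7.53 in sham rats and 6.02 and 4.24 in stimulated rats 2 and 4. Their background was 2.38 in each sham list and 6.29 and 6.37 in stimulated rats 2 and 4, so it was higher in the stimulated lists in the runs and outside them. This background is recovered from the fold values that chose the regions, so its contrast between lists is a description. The part of this background in the fold values of the runs was not tested.

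Several single values stood out and are named after they were seen. The highest fold in stimulated rat 2 was 21.9, on chromosome 2 at 176314212 to 176314414, where stimulated rat 4 had 13.0 and sham rats 1 to 3 had 7.10, 6.38 and 6.22. Background there was 4.76 to 7.14 genome-wide rates in the sham lists and 1.50 and 1.87 in stimulated rats 2 and 4. The opposite order was found on chromosome 1 at 188323272 to 188323542, in the longest run. Sham rat 2 had 21.1 and sham rat 1 had 10.0 there, against 4.52 and 2.16 in stimulated rats 2 and 4, over a background of 4.76 in those sham lists and 15.4 in the stimulated ones. On the X chromosome, the region at 120624 to 120842 had fold 16.7, 9.82 and 10.4 in sham rats 1 to 3 and 6.66 and 5.56 in stimulated rats 2 and 4. The region at 150548297 to 150548479 had 8.68 and 8.54 in stimulated rats 2 and 4 and no peak in another list.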

How the data were processed

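MACS2 peak lists of 3 sham-operated and 4 stimulated animals were analysed, 1 list each, grouped by the treatment label; rats are numbered within groups. The submitters' processing notes list MACS2 2.1.0.20141030, Bowtie 1.0.0 and cutadapt 1.7.1. Per the file headers, peaks were called per rat against the group's input, with 50 bp tags extended to 150 bp, 1 tag kept per position, sub-summits reported, a q threshold of 0.1 and an effective genome size of 1.87 Gb (a mouse preset). The deposited pileup is a signal in tags at the summit. Fold enrichment as deposited is the ratio (pileup + 1) / (local background + 1). The deposited −log10 p-value and −log10 q-value are the peak caller's. These are the authors' values of each peak within its list, and folds of different lists are set side by side only as descriptions.

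Sub-summits of 1 interval were counted once, with the sub-summit of highest fold. Local background was recovered as (pileup + 1) / fold − 1 and divided by the genome-wide rate of filtered tags. Presence needed 1 shared bp. Held-out shares were compared with an exact permutation test over 35 splits, p as 2 times the smaller tail; intervals are 95% Clopper-Pearson. Merging and presence code was tested on simulated data (Python 3.11.15, pandas 2.3.3, scipy 1.17.1).

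No source used here gives the genome build. Peaks extend past the last gene of the GRCr8 table on 13 of 21 chromosomes, so sequences and genes of the regions were not analysed here. Named regions are the 10 strong in the most lists, up to 5 called in each group alone, those nearest the threshold and that called in the most lists. The regions, lists and tests were chosen with earlier results of these data known.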

Additional observations from a re-analysis of the deposited data

Results flagged for a closer look

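Stimulated rat 1 lay apart from the remaining stimulated rats in 2 of 11 measures examined, where about 1 in 20 arises by chance. Both concern the 4 recurrent strong regions that stimulated rat 1 called. Their median pileup in that list was 81 tags, against 19 in the nearest other stimulated rat. Their median local background was 21.5 times the genome-wide rate, with 1.87 as the next highest value. The other lists' medians are over 46 to 1055 regions, so the values do not cover the same regions.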

How the results depend on the processing

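At a fold of at least 6 there were 6615 regions, 1893 in stimulated lists only and 38 in sham lists only, and the held-out difference was 6.94 percentage points. At a fold of at least 10 there were 213 regions, 17 in stimulated lists only, and the difference was -21.1 points. With strong peaks required in 3 lists there were 183, 0 in stimulated lists only, and it was -30.6 points. With peaks at a −log10 q of at least 3 the difference was 3.25 points, with 245 regions in stimulated lists only and 1 in sham lists only. With a pileup of at least 10 it was 18.5 points, with 368 in stimulated lists only. With presence in lists of equal length it was 3.25 points, with 408 and 109. Without stimulated rats 1 and 3 it was 38.0 points. The cause was not tested. Leaving out 1 rat gave 340 to 1057 regions, -48.5 to 7.25 points, 0 to 254 regions in stimulated lists only and 0 to 11 in sham lists only. An overlap of 50 bp, gaps of up to 500 bp, autosomes alone, and (added after seeing the data) leaving out the 6 runs moved no direction and no count by over 1.5 times. Fisher's test called 0 regions under both of its alternatives, with 54 and 26 at an unadjusted p below 0.05, and the permutation test cannot reach 0.05 in any of these settings. The sham libraries had the fewest tags, and the effect of depth on calls was not tested. No paired analysis was possible because the rats' numbers are not shared between groups.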
